A study of Mus musculus with 8 samples.

Results

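The genes described here encode the secreted and membrane-bound cues of the slit, netrin, semaphorin and ephrin families and their receptors. The list was given by symbol, 20 ligands and 20 receptors, and all 40 symbols matched an Entrez gene in the deposited count table of 27179 genes. RNA was sequenced from 8 whole mouse hearts at E10.5, a stage when the heart tube has looped and chambers, cushions and epicardium are forming. By the labels, 5 hearts were wild type (MOZ WT, Kat6a+/+) and 3 had lost both alleles of Kat6a (MOZ KO, Kat6a-/-). The product of Kat6a, or Moz, is an enzyme that acetylates histones. No treatment is labelled, and the labels name neither strain, litter and sex of the embryos nor which part of the gene was removed.

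Guidance cues were first studied in growing axons, and the same ligands and receptors direct the movement of endothelial, neural crest and mesenchymal cells in the embryo. Slits bind Robo receptors, and netrins bind Unc5 receptors and neogenin. Class 3 semaphorins are secreted and act through neuropilins and plexins, while the other semaphorins used here are membrane proteins that mostly bind plexins directly. Ephrins are attached to the cell surface and bind Eph receptor tyrosine kinases on neighbouring cells. In the heart these systems are known for roles in the outflow tract, the endocardial cushions and the vessels.

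Total counts were 19911803 to 34539787 per heart. Levels are given as CPM, the count of a gene relative to its scaled library total, as mean ± SD over n = 5 MOZ WT and n = 3 MOZ KO hearts. Log2 fold changes are MOZ KO over MOZ WT with their standard error (SE), and adjusted p-values are from edgeR's quasi-likelihood test with Benjamini-Hochberg adjustment over all 15086 genes tested, with a threshold of 0.05. The labels do not say whether hearts came from separate litters, so the spread behind each p-value may leave out differences between litters. In the library descriptions the 3 MOZ KO hearts carry the numbers 1 to 3 and the MOZ WT hearts 4 to 8, so any effect of that order and genotype cannot be told apart. Kat6a itself stood at 145 ± 6.92 CPM in MOZ WT and 137 ± 3.81 CPM in MOZ KO (log2 fold change -0.08 ± 0.05, adjusted p = 0.529). Since the removed part is unknown, this value checks no label. Xist RNA, which marks female cells, was at 306 and 300.3 CPM in MOZ WT replicates 4 and 5 and reached at most 0.372 CPM elsewhere. The 10 cardiomyocyte markers summed to 26663 to 28702 CPM in MOZ WT and 28428 to 31860 CPM in MOZ KO. Of these 10, 8 had a log2 fold change above 0 and 2 below, with a median of 0.0985, and 0 passed. At an unadjusted p under 0.05 in edgeR's test were 5 of them, against 14.2% of all genes tested.

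Of the 40 guidance genes, 39 passed the filter on low counts, and 7 of these 39 differed between the groups, 3 higher and 4 lower in MOZ KO. Across all genes tested 2.67% passed, 1.44% higher and 1.23% lower. The list was chosen with earlier results of these data known, so these shares are no test of it. Nrp2, Sema5a, Efnb3 and Ntn1 were lower in MOZ KO, and Sema3b, Epha4 and Plxna2 were higher. The changes were between 1.18-fold up for Plxna2 and a fall to 0.555 of the MOZ WT level for Nrp2. In these whole hearts, fewer cells of a type and less RNA per cell cannot be told apart. The remaining 32 did not pass, and over the 39 genes the median log2 fold change was -0.04, against -0.0001 over all genes. In all 7 genes that passed, the 3 MOZ KO values lay outside the range of the 5 MOZ WT values, and the same held for Slit3. Thus 3 genes had MOZ KO values entirely above and 5 entirely below. Over all genes tested 9.59% had no overlap, 4.77% above and 4.81% below.

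Promoter sequence is shown for Nrp2 and Sema5a, the pair with the largest falls, and for Epha4, 1 of the 2 receptors that rose, because Kat6a is known as a chromatin regulator that works at promoters. Each run is the 250 bases upstream of the start site of a RefSeq promoter entry on GRCm38.p6. It is read 5′ to 3′ on the strand of the gene, with matches to the GC box GGGCGG or its reverse complement in capitals. That start site can lie inside the span of the gene, as for Epha4, whose window runs from 77515089 while the gene extends to 77515107. The windows are chr1:62703067-62703316 on the plus strand for Nrp2, chr15:32244563-32244812 on the plus strand for Sema5a and chr1:77515089-77515338 on the minus strand for Epha4.
Nrp2: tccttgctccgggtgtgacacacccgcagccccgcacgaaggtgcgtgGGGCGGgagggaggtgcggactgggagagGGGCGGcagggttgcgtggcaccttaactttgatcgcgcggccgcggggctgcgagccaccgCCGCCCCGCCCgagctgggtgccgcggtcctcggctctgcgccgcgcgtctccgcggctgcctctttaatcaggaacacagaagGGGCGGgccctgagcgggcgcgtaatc
Sema5a: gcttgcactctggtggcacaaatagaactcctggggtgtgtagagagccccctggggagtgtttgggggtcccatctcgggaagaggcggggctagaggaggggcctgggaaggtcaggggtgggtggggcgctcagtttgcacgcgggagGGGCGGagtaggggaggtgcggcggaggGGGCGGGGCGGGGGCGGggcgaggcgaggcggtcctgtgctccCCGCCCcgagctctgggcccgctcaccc
Epha4: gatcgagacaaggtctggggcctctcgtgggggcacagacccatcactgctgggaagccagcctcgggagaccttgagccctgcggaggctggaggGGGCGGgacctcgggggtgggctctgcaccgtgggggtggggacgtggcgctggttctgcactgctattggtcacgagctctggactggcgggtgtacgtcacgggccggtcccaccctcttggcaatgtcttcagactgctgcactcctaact

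The Nrp2 window held 5 GC boxes and 32 CpG dinucleotides, the Sema5a window 5 and 17, and the Epha4 window 1 and 14. Matches that overlap each other run together in capitals. Among 32851 such windows of RefSeq genes, 32.7% held at least 1 GC box and the median CpG count was 6. A RefSeq window was found for 32 of the 40 guidance genes, and 24 of these genes held a GC box in at least 1 window. That count is per gene, while the share of 32.7% is per window. The median CpG count over the windows of guidance genes was 16. CCAAT, counted on both strands, occurred once in the Epha4 window and not in those of Nrp2 and Sema5a, against 33.8% of all windows. TATAAA and AGATAA, both strands, were in none of the 3 windows, against 12.4% and 9.99% of all. No match overlapped a match to another of these motifs. The window of Plxna2, the other receptor that rose, is not printed and held 2 GC boxes and 18 CpG dinucleotides. No window was read for Ntn1, Efnb3 and Sema3b.

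Per kilobase of exon, guidance genes covered a wide range in MOZ WT hearts. Plxnd1, the plexin of endothelial cells, was highest at 71.3 ± 7.19 CPM per kb, followed by Efnb3 at 61.9 ± 3.84. Plxnb2 at 52.0 ± 3.23 and the netrin receptor gene Unc5b at 51.6 ± 3.41 were next and did not differ beyond their spread. Nrp1, a co-receptor for class 3 semaphorins and for vascular endothelial growth factor, stood at 46.1 ± 1.38 CPM per kb. Ephb4, the receptor of venous endothelium, stood at 40.3 ± 2.01, and its ligand gene Efnb2, known from arterial endothelium, at 26.04 ± 2.67. At the other end, Sema3e was at 0.280 ± 0.0883 CPM per kb, and Slit1 had 1 to 5 counts in each heart and was not tested. The ligand with the most RNA per length was a B ephrin, and the class 3 semaphorin with the most was Sema3c, at 17.7 ± 3.17 CPM per kb.

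**Figure D1:**
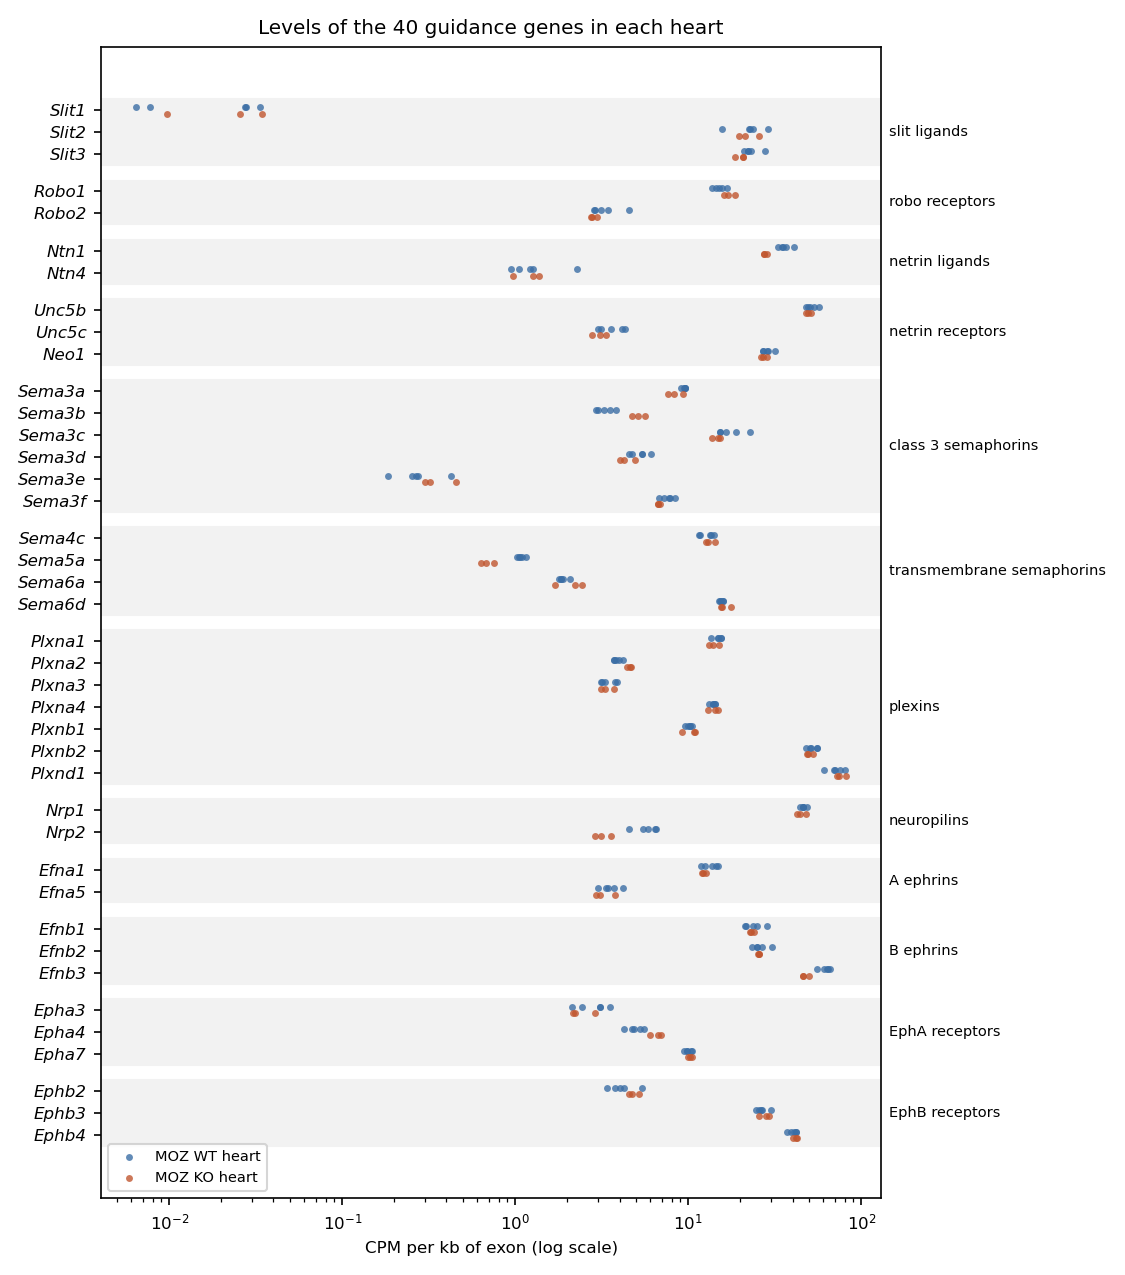
Level of each of the 40 guidance genes in each heart, in CPM per kb of exon on a log axis, grouped by family; blue points are the 5 MOZ WT hearts and orange points the 3 MOZ KO hearts. Plxnd1 is highest in MOZ WT at 71.3 CPM per kb and Slit1 lowest, and the groups stand apart for Nrp2, Sema5a, Efnb3, Ntn1, Sema3b, Epha4 and Plxna2.

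The wild-type hearts did not vary evenly. MOZ WT replicate 2 had the highest MOZ WT value for 17 of 39 genes and replicate 5 for 13. Over all genes tested these shares were 23.6% and 18.7%. The median coefficient of variation among MOZ WT hearts was 9.08% for the guidance genes and 8.16% for all genes. Among tested genes the coefficient was highest for Ntn4 (39.2%), Sema3e (31.5%), Slit2 (21.0%), Robo2 (20.4%) and Epha3 (19.6%). The highest MOZ WT heart was replicate 2 for Ntn4, Slit2 and Robo2, replicate 1 for Sema3e and replicate 4 for Epha3.

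Among netrins, the main ligand fell and the receptor genes of the list did not pass. Ntn1 (Entrez 18208, chromosome 11, 68209364 to 68386826, mm10), the secreted netrin-1, had 189, 233, 199, 202 and 212 CPM in MOZ WT replicates 1 to 5 and 164, 156 and 156 CPM in MOZ KO replicates 1 to 3. All MOZ KO hearts were below all MOZ WT hearts. Its log2 fold change was -0.38 ± 0.06 (SE; adjusted p = 0.000704). Ntn4, a netrin of basement membranes, was far less abundant, at 1.35 ± 0.528 CPM per kb against 36.0 ± 2.91 for Ntn1 in MOZ WT, and varied from 2.26 to 5.46 CPM there. Its log2 fold change of -0.15 ± 0.26 did not pass (adjusted p = 0.870). The receptor genes Unc5b (303 ± 20.02 and 289 ± 8.42 CPM in MOZ WT and MOZ KO) and Neo1 (212 ± 13.4 and 201 ± 7.38 CPM) had log2 fold changes of -0.06 ± 0.05 and -0.08 ± 0.05. The 95% intervals of these differences ran from -0.17 to 0.04 and from -0.18 to 0.03. Unc5c had the smallest p of the netrin receptors, with 29.1, 38.7, 28.1, 33.1 and 40.2 CPM in MOZ WT and 25.7, 28.6 and 30.9 CPM in MOZ KO. The groups overlapped, and the log2 fold change of -0.25 ± 0.12 did not pass (adjusted p = 0.366). Outside the list, the netrin receptor gene Unc5a had 7.88 ± 0.973 CPM in MOZ WT and 5.46 ± 0.484 CPM in MOZ KO, without overlap. Its log2 fold change of -0.54 ± 0.14 fell just short of the threshold (adjusted p = 0.0502). Dcc and Unc5d, at 0.10 ± 0.28 and 0.15 ± 0.37, did not pass either.

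No slit or Robo gene passed. Slit3 had 105, 114, 109.8, 111 and 139 CPM in MOZ WT and 93.5, 104 and 104 CPM in MOZ KO. The MOZ KO hearts lay below the MOZ WT hearts by a small margin, and the log2 fold change was -0.21 ± 0.08 (adjusted p = 0.252). Slit2 had 124 to 231 CPM in MOZ WT and 156 to 205 in MOZ KO, with a 95% interval of the log2 fold change from -0.52 to 0.47. That interval is wide enough to hold changes of the size seen for Ntn1. Robo1, a receptor for slits, had 109, 126, 118, 104 and 114 CPM in MOZ WT and 139.9, 128 and 122 CPM in MOZ KO. MOZ WT replicate 2 overlapped with the MOZ KO hearts. The log2 fold change of Robo1 was 0.19 ± 0.06 (adjusted p = 0.123), and without MOZ WT replicate 2 it was 0.23 and passed (adjusted p = 0.0279). Robo2 went the other way, with -0.24 ± 0.13 (adjusted p = 0.464).

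**Figure D2:**
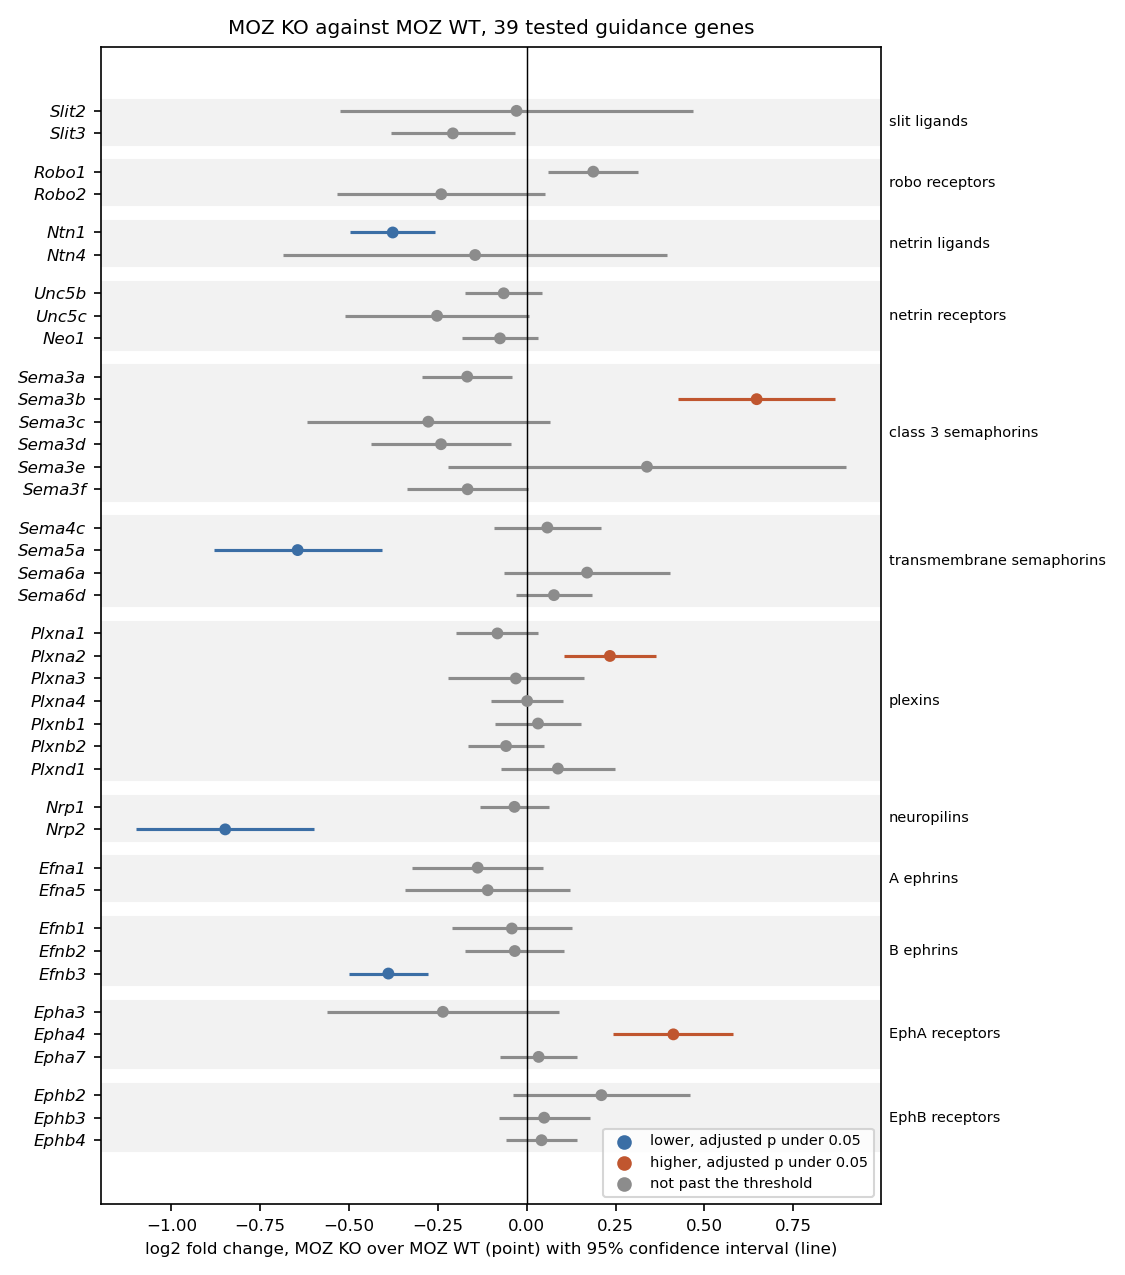
Log2 fold change of MOZ KO over MOZ WT for the 39 tested guidance genes, with 95% confidence intervals, by family; blue marks genes that were lower, orange genes that were higher and grey genes that did not pass an adjusted p of 0.05. Nrp2 lies furthest to the left at -0.85 and Sema3b furthest to the right at 0.65, and most genes lie close to 0.

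Among the 6 class 3 semaphorins, 1 rose and 5 did not pass. Sema3b (Entrez 20347, chromosome 9, 107597674 to 107609241) had 12.1, 13.1, 11.1, 10.05 and 10.3 CPM in MOZ WT and 17.7, 19.3 and 16.3 CPM in MOZ KO. Every MOZ KO heart was above every MOZ WT heart, and the log2 fold change was 0.65 ± 0.11 (adjusted p = 0.00124). Sema3b shares 317 bases with Lsmem2, which had 4.85 ± 0.783 CPM in MOZ WT and 6.01 ± 0.855 CPM in MOZ KO and did not pass (adjusted p = 0.413). The labels do not state whether counting used strand, so the count of Sema3b is uncertain where reads could be shared. Sema3f, on the same chromosome from 107681499 to 107710475, did not follow it, with 25.7 ± 2.07 CPM in MOZ WT and 22.9 ± 0.437 CPM in MOZ KO (log2 fold change -0.17 ± 0.08, adjusted p = 0.365).

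The other 4 class 3 semaphorins lie on chromosome 5 between 12383161 and 17730268. From the lower coordinate up, the log2 fold changes were -0.24 ± 0.09 for Sema3d, -0.17 ± 0.06 for Sema3a, 0.34 ± 0.27 for Sema3e and -0.28 ± 0.14 for Sema3c. None of the 4 passed (adjusted p = 0.179 to 0.633). Sema3c, a cue for the neural crest cells of the outflow tract, had 93.8, 113, 82.2, 75.6 and 75.1 CPM in MOZ WT and 75.9, 73.8 and 67.5 CPM in MOZ KO. Sema3d, which is expressed in the proepicardium, had 29.6 to 39.7 CPM in MOZ WT and 26.3 to 32.1 CPM in MOZ KO. For both genes the lower MOZ WT hearts overlapped with the MOZ KO hearts.

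Of the 4 membrane semaphorins, 1 fell. Sema5a (Entrez 20356, chromosome 15, 32244813 to 32696341), whose extracellular part carries thrombospondin repeats, had 11.1, 11.8, 11.5, 11.3 and 12.4 CPM in MOZ WT and 8.10, 6.81 and 7.33 CPM in MOZ KO. The MOZ WT hearts lay close together and well above the MOZ KO hearts, and the log2 fold change was -0.64 ± 0.11 (adjusted p = 0.00217). Sema6d, which binds Plxna1 and is known from cardiac morphogenesis, had 101 ± 2.53 and 107 ± 7.97 CPM in MOZ WT and MOZ KO (log2 fold change 0.08 ± 0.05, adjusted p = 0.553). Sema4c and Sema6a did not pass either, at 0.06 ± 0.07 and 0.17 ± 0.11.

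Among the receptors of semaphorins, Nrp2 fell and Plxna2 rose. Nrp2 (Entrez 18187, chromosome 1, 62703317 to 62818692) encodes neuropilin-2, the co-receptor of Sema3f and Sema3c, and had the largest fold change of the list. It had 52.0, 53.0, 37.0, 47.5 and 44.2 CPM in MOZ WT and 23.5, 25.3 and 29.0 CPM in MOZ KO. The lowest MOZ WT heart, replicate 3, was still above every MOZ KO heart. The log2 fold change was -0.85 ± 0.12 (adjusted p = 0.00147), a level 0.555 of that in MOZ WT. Nrp1, its paralog, had 263 to 286 CPM in MOZ WT and 252 to 283 CPM in MOZ KO, with a log2 fold change of -0.03 ± 0.05 and a 95% interval from -0.13 to 0.06.

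Plxna2 (Entrez 18845, chromosome 1, 194619791 to 194816869), a signalling receptor for class 3 semaphorins in cardiac neural crest cells, had 41.1, 46.5, 40.8, 43.8 and 42.1 CPM in MOZ WT and 51.6, 50.9 and 48.5 CPM in MOZ KO. The groups did not overlap, but the rise was small and near the threshold (log2 fold change 0.23 ± 0.06, adjusted p = 0.0461). The call was lost on leaving out any 1 of 7 hearts, all but MOZ WT replicate 2. The highest of these adjusted p-values was 0.202, without MOZ KO replicate 1. It was also lost on leaving out both Xist-positive hearts (adjusted p = 0.102). Alternatives gave log2 fold changes of 0.21 to 0.26, all above 0. The other 6 plexins did not pass and lay between -0.08 for Plxna1 and 0.09 for Plxnd1. Plxna3, Plxna4, Plxnb1 and Plxnb2 had log2 fold changes of -0.03 ± 0.09, 0.001 ± 0.05, 0.03 ± 0.06 and -0.06 ± 0.05. The sign for Plxna4 turned under other scalings. Plxnd1, the receptor of Sema3e, had 423 to 557 CPM in MOZ WT and 496 to 561 CPM in MOZ KO.

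**Figure D3:**
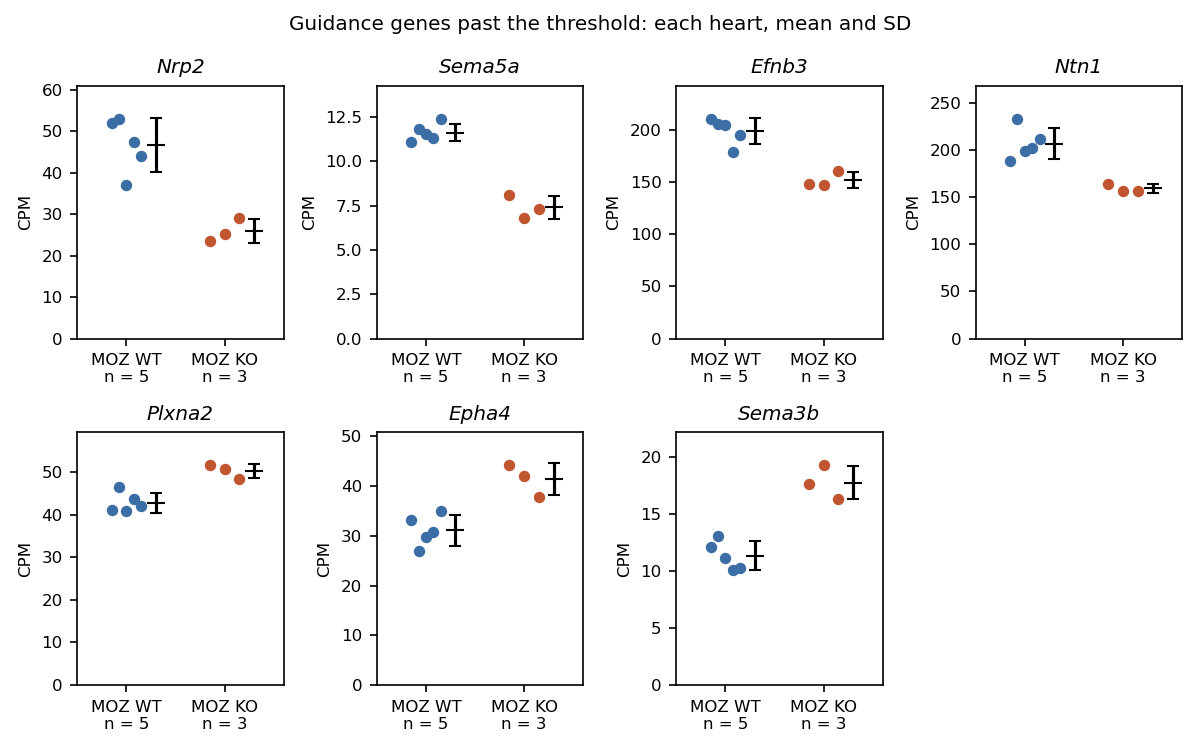
CPM in each heart for the 7 guidance genes past the threshold, with the mean and SD of each group beside the points; each axis starts at 0. In every panel the 3 MOZ KO hearts lie outside the range of the 5 MOZ WT hearts, below it for Nrp2, Sema5a, Efnb3 and Ntn1 and above it for Plxna2, Epha4 and Sema3b.

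Of the 5 ephrins, 1 fell. Efnb3 (Entrez 13643, chromosome 11, 69554092 to 69561150), a membrane-spanning B ephrin, had 210.4, 205, 205, 179 and 195 CPM in MOZ WT and 148, 147 and 160.5 CPM in MOZ KO. All MOZ KO hearts were below all MOZ WT hearts, and the log2 fold change was -0.39 ± 0.05 (adjusted p = 0.000254), the smallest adjusted p of the list. Efnb1 and Efnb2 had log2 fold changes of -0.04 ± 0.08 and -0.03 ± 0.07 and did not pass. Of the A ephrins, which are held by a lipid anchor, Efna1 had 23.8, 24.4, 20.6, 22.6 and 19.6 CPM in MOZ WT and 20.1, 19.7 and 20.6 CPM in MOZ KO. Its values overlapped (log2 fold change -0.14 ± 0.09, adjusted p = 0.528), and Efna5 had -0.11 ± 0.11.

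Of the 6 Eph receptors, 1 rose. Epha4 (Entrez 13838, chromosome 1, 77367182 to 77515107), a receptor that binds both A ephrins and ephrin-B3, had 33.1, 26.9, 29.8, 30.8 and 34.9 CPM in MOZ WT and 44.2, 42.1 and 37.9 CPM in MOZ KO. The highest MOZ WT heart was below the lowest MOZ KO heart. The log2 fold change was 0.41 ± 0.08 (adjusted p = 0.00601), opposite in sign to that of its ligand gene Efnb3. The other ephrins of the list also had log2 fold changes below 0, and none of them passed. Without MOZ KO replicate 1 the adjusted p of Epha4 was 0.0704. Epha3, a receptor known from cushion development, had -0.24 ± 0.15, and Epha7 had 0.03 ± 0.05, and Ephb3 had 0.05 ± 0.06, none past the threshold. Ephb2 had 17.9, 16.3, 19.2, 20.2 and 25.7 CPM in MOZ WT and 22.5, 21.6 and 24.8 CPM in MOZ KO. MOZ WT replicate 5 was the highest of all 8 hearts, and the log2 fold change of 0.21 ± 0.12 did not pass (adjusted p = 0.450). Efnb2 and Ephb4, the arterial and venous partners, had 112 ± 11.5 and 109.8 ± 0.660 CPM, and 176 ± 8.76 and 181 ± 4.90 CPM, in MOZ WT and MOZ KO. The 95% interval of the log2 fold change of Ephb4 ran from -0.06 to 0.14.

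Set against each other, 14 of 19 tested ligands had a log2 fold change below 0 and 5 above, with a median of -0.14, while receptors were 10 below and 10 above, with a median of -0.01. Over all genes tested 7548 were below 0 and 7533 above. Past the threshold, 3 ligands fell and 1 rose, and 1 receptor fell and 2 rose. All 20 ligands together held 1253 to 1490 CPM in MOZ WT and 1176 to 1237 CPM in MOZ KO, so the groups did not overlap. Without Ntn1 and Efnb3, a choice made after the values were seen, the other 18 ligands held 854 to 1052 CPM and 859 to 925 CPM, and the groups overlapped. The 20 receptors held 2570 to 2836 CPM and 2646 to 2780 CPM, which did overlap.

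The changed genes can also be read against a relative within each heart, as the log2 ratio of their CPM. Each gene past the threshold was set against the family member with the highest level per length among those that did not pass. These 7 pairs were chosen by the calls in the same hearts, so the ratios restate them and are given as a description, with no test. Nrp2 over Nrp1 was -2.56 ± 0.20 in MOZ WT and -3.36 ± 0.24 in MOZ KO (log2 ratio, SD). The mean ratio of Sema5a to Sema6d went from -3.12 ± 0.03 to -3.85 ± 0.06, and that of Sema3b to Sema3c went from -2.94 ± 0.10 to -2.03 ± 0.08. Efnb3 over Efnb2 was 0.83 ± 0.18 and 0.47 ± 0.07, and Epha4 over Epha7 was -1.36 ± 0.19 and -0.98 ± 0.14. Values of these 5 pairs did not overlap between the groups. Ntn1 over Ntn4 (6.06 ± 0.39 and 5.80 ± 0.25) and Plxna2 over Plxnd1 (-3.52 ± 0.14 and -3.38 ± 0.08) overlapped.

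**Figure D4:**
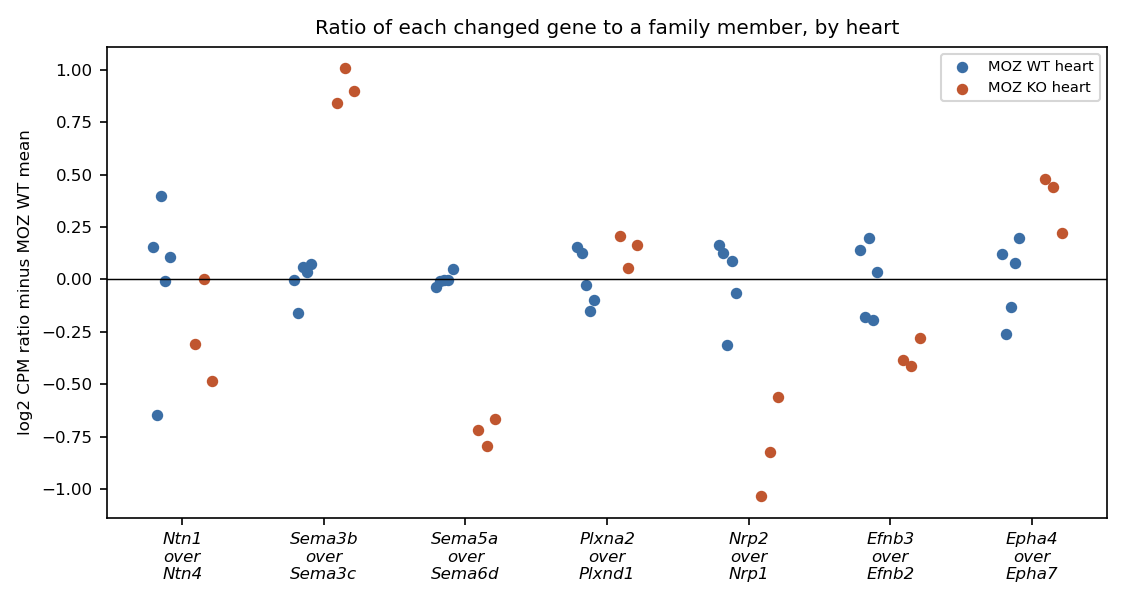
Log2 ratio of CPM of each guidance gene past the threshold to a family member that did not pass, in each heart, minus the MOZ WT mean of that ratio; blue points are MOZ WT and orange points MOZ KO hearts. The groups stand apart for the Sema3b, Sema5a, Nrp2, Efnb3 and Epha4 pairs and overlap for the Ntn1 and Plxna2 pairs.

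Beyond the 40 genes, 32 other genes of the same families were listed, of which 25 were tested, 1 rose, 1 fell and 23 did not pass. The share past the threshold over all genes tested was 2.67%. Robo4, the Robo receptor of endothelial cells, had 3.01, 5.07, 2.73, 5.05 and 4.16 CPM in MOZ WT and 6.83, 7.17 and 8.73 CPM in MOZ KO, without overlap (log2 fold change 0.93 ± 0.19, adjusted p = 0.00981). Ephb6, an Eph receptor without kinase activity, fell from 7.62 ± 0.672 to 4.96 ± 0.733 CPM (log2 fold change -0.61 ± 0.15, adjusted p = 0.0251). The call of Robo4 was lost without MOZ KO replicate 3 (adjusted p = 0.0833). That of Ephb6 was lost without any 1 of 5 hearts, MOZ WT replicates 4 and 5 and each MOZ KO heart (up to 0.131), and of both Xist-positive hearts (0.118). The count of genes past the threshold in this list was 1 without MOZ WT replicate 4. It was 0 without MOZ KO replicate 3, where 8 genes had an unadjusted p under 0.05 in edgeR's test.

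Among 39 listed genes that carry the signal inside the cell or act as co-receptors, 37 were tested, 2 fell and 35 did not pass. Of all genes tested, 2.67% passed. Dpysl5, of the collapsin response mediator family through which semaphorins act on the cytoskeleton, fell from 18.1 ± 3.67 to 11.4 ± 0.0878 CPM (log2 fold change -0.66 ± 0.14, adjusted p = 0.0190). Vav2, a signalling protein downstream of Eph receptors, fell from 35.8 ± 1.27 to 28.8 ± 2.02 CPM (-0.31 ± 0.07, adjusted p = 0.0160). For both genes every MOZ KO heart was below every MOZ WT heart. With both Xist-positive hearts left out, neither passed (adjusted p = 0.0750 and 0.0832) and the count in the list was 0, with 7 genes at an unadjusted p under 0.05 in edgeR's test. The count was also 0 without MOZ KO replicate 1, again with 7 such genes. Dpysl5 did not pass without any 1 of the 3 MOZ KO hearts (adjusted p of up to 0.125), and Vav2 did not pass without MOZ KO replicate 1 or 2 (up to 0.126). The count was 1 without MOZ KO replicate 2, from a gene other than these, and 1 without MOZ KO replicate 3, from Vav2. DESeq2 with all hearts passed 3 of the 37.

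Markers of some cell types moved between the groups as well. For comparison, 1.44% of all genes tested passed as higher and 1.23% as lower. Of 9 epicardial markers 6 fell and 1, Krt19, rose, and their summed level was 478 to 546 CPM in MOZ WT and 361 to 413 CPM in MOZ KO. Of 8 cushion mesenchyme markers 2 fell, Twist1 and Msx1, with sums of 1411 to 1623 and 1389 to 1624 CPM. Most of these sums was Vcan, at 1098 to 1364 CPM in MOZ WT and 1113 to 1363 CPM in MOZ KO. By gene, 7 of the 8 had a log2 fold change below 0, with a median of -0.21. Of 10 endothelial and endocardial markers 2 rose, Pecam1 and Tie1, and 1 fell, Npr3, with sums of 1236 to 1381 and 1259 to 1342 CPM. By gene, 8 of these 10 had a log2 fold change above 0 and 2 below, with a median of 0.12. Of 7 macrophage markers 5 rose, from sums of 12.5 to 25.8 CPM to 35.2 to 43.0 CPM. The part of these cell types in the changes of guidance genes was not tested.

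Because many guidance genes are active in neurons, markers of neural tissue were read too. Of 12 neural markers, 8 were tested and 0 passed edgeR's test, with 2 at an unadjusted p under 0.05. Their sum was 39.1 to 53.5 CPM in MOZ WT and 33.8 to 39.9 CPM in MOZ KO. Neurog1, Olig2 and Nkx2-2 had no count in any heart. Of 7 markers of neural crest and Schwann cell precursors, 4 were tested and 0 passed, with 0 at an unadjusted p under 0.05, and Foxd3 and Tfap2b had no count in any heart. Sums of that list were 137 to 165 CPM and 143 to 155 CPM. Markers of foregut endoderm and liver summed to 0.580 to 1.35 CPM in MOZ WT and 1.47 to 14.3 CPM in MOZ KO, with the highest value in MOZ KO replicate 3 from Afp, at 12.1 CPM. Those of red blood cells summed to 3323 to 14057 and 4768 to 8007 CPM, and 0 of 7 passed, with 0 at an unadjusted p under 0.05.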

How the data were processed

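RNA of 8 E10.5 mouse hearts (5 MOZ WT, 3 MOZ KO, grouped by title) was isolated with a column kit and made into stranded TruSeq libraries, per the labels' protocols. The authors deposited raw counts per Entrez gene, made with bcl2fastq and featureCounts on mm10, per the submitters' processing notes. The sources used here do not give the aligner, versions, annotation or strand setting. The 8 single-heart files held the same counts as the table of all hearts. Symbols and coordinates are from RefSeq GRCm38.p6 (mm10). Gene length is the exon length in the deposited table.

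Counts were filtered with filterByExpr, scaled by trimmed mean of M values and tested with edgeR 4.0.16 (quasi-likelihood, robust, R 4.3.3), MOZ KO against MOZ WT, on 15086 genes. SE was derived from the F statistic. Common dispersion was 0.00828, and total counts were 19911803 to 34539787 per heart. The code was tested on simulated counts for 8 hearts. Of the planted changes, 42% at 1.25-fold, 74% at 1.5-fold and 98% at 2-fold passed, and 7.14% of calls were false. A gene that did not pass may therefore still differ by a small fold.

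Given with values in every heart were the genes past the threshold and the gene of smallest p in each family, other members by range or mean, and from the 2 other guidance lists the genes past the threshold. Members and lists were chosen with earlier results of these data known. Alternatives were DESeq2 1.42.0, its size factors, no count filter, a replicate block, and leaving out the hearts with Xist RNA or each heart in turn. Of the 40 genes, 24 overlap an annotated neighbour, which was itself tested for 1 of them.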

Additional observations from a re-analysis of the deposited data

Results flagged for a closer look

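In 3 of the 39 tested guidance genes, a single MOZ WT heart stood apart from the other 4 by Dixon's test at the 95% level, where chance flags about 1 in 20 groups. Slit3 was 139 CPM in MOZ WT replicate 5, against 105 to 114 CPM in the others. Ntn4 was 5.46 CPM in MOZ WT replicate 2, against 2.26 to 3.05 CPM. Sema3a was 66.1 CPM in MOZ WT replicate 1, against 69.0 to 70.0 CPM. None of these 3 genes passed the test between the groups, with or without the heart named.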

How the results depend on the processing

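The count of guidance genes past the threshold was 7 with DESeq2, with its size factors and without a count filter, the same 7 each time. It was 6 with the Xist-positive hearts left out and 5 to 8 on leaving out single hearts. Nrp2, Ntn1, Sema5a, Efnb3 and Sema3b kept their call in all of these. Over all genes the count was 194 to 496 on leaving out single hearts. In the other genes of the families it was 5 with DESeq2, 5 without a count filter and 0 to 3 on leaving out single hearts. Among mediators it was 0 with the Xist-positive hearts left out (7 at an unadjusted p under 0.05 in edgeR's test, 3 calls by DESeq2 with all hearts) and 0 to 3 on leaving out single hearts.

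The replicate numbers did not pair the hearts: deviations from the group mean correlated at 0.07, -0.12 and -0.05 between hearts numbered 1, 2 and 3. With a replicate block, 181 genes passed over all, 6 guidance genes, 1 of the other genes of the families and 0 mediators (6 at an unadjusted p under 0.05). Under that block Nrp2 had a log2 fold change of -0.85 and an adjusted p of 0.0902, Plxna2 0.179, and Sema3c passed at 0.0160.

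Signs turned only in genes that did not pass. Plxna4 was -0.0006 with DESeq2, -0.0003 with size factors, -0.0007 without a filter, -0.0023 with the block and -0.0011 without the Xist-positive hearts. With the block and without those hearts, Efnb1 was 0.0442 and 0.042 and Epha7 -0.0003 and -0.001, and Slit2 was 0.0167 with the block. On leaving out single hearts, Slit2 ranged from -0.15 to 0.0749, Ntn4 from -0.26 to 0.11, Sema4c from -0.0004 to 0.10, Plxna3 from -0.11 to 0.0199, Plxna4 from -0.0433 to 0.0468, Plxnb1 from -0.0167 to 0.10, Efnb1 from -0.0813 to 0.0269 and Efnb2 from -0.0713 to 0.0256. The cause was not tested. With 1 to 5 counts per heart, a difference in Slit1 was not detectable at this depth.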
